A study of Mus musculus with 15 samples.

Results

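The TAM receptors are the receptor tyrosine kinases Tyro3, Axl and Mertk, and their ligands are the secreted proteins Gas6 and Pros1. The 5 genes were found by symbol in a table of fragment counts from mouse retinal pigment epithelium (RPE), where they are 5 of 46078 genes. They comprise 3 receptors and 2 ligands, and all 5 were present in the table.

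The RPE, the pigmented layer behind the photoreceptors, was taken from female mice at postnatal day 14, with RNA extraction starting 2 hours after the light came on. The 15 libraries form 4 groups: Mertk KO with 4 libraries, Mertk WT with 4, Bai1 Tg pos with 3 and Bai1 Tg neg with 4. The Bai1 groups both carry wild-type Mertk and differ by a Bai1 transgene. The sources used here do not give its promoter or species. Every library carries 1 strain label, a mixture of c57Bl/6J with the Mertk knockout line B6;129-Mertktm1Grl/J, so the background is mixed in all groups. The labels do not say that replicates came from separate animals, and p-values then reflect only library-to-library spread, part of which may be technical. The series title names compensation among phosphatidylserine receptors, and the comparisons ask how TAM genes differ with the Mertk allele and with the Bai1 transgene.

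As background, TAM receptors do not bind the membrane lipid phosphatidylserine directly. Gas6 and Pros1 carry an amino-terminal domain that is carboxylated with the help of vitamin K and binds phosphatidylserine, and a carboxy-terminal domain that binds the receptor, so each ligand forms a bridge between an exposed membrane and a phagocyte. Gas6 binds all TAM receptors, while Pros1, also a plasma anticoagulant cofactor, activates Tyro3 and Mertk. In the RPE, Mertk drives the daily engulfment of shed photoreceptor outer segments, and its loss causes photoreceptor degeneration.

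Libraries held 9591129 to 20024507 counted fragments, and 3 fragments, the floor used here, equal 0.15 to 0.313 CPM when divided by the library total alone. All other CPM are counts scaled to library size with TMM factors. Rpe65, the retinoid isomerase that marks RPE, stood at 4175 to 6667 CPM in the 15 libraries. Adgrb1, the gene of Bai1, was at 166 to 170 CPM in Bai1 Tg pos. In Bai1 Tg neg 1 to 3 it did not exceed 0.142 CPM. The library labelled Bai1 Tg neg 4 had 144 CPM of Adgrb1, which goes against its label, and values of the Bai1 Tg neg group are given with and without it. Descriptions carry a tag number of unstated meaning, which is 12 in all Bai1 libraries, 17 in replicates 1 to 3 of both Mertk groups and 21 in their replicate 4.

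Since the receptors are relatives, their coding sequences were compared to show whether fragments could be shared between them. Aligned end to end, Mertk (2982 coding bases) and Tyro3 (2640) were identical at 66.7% of aligned positions, Mertk and Axl (2664) at 66.3%, and Tyro3 and Axl at 65.8%. The ligands Gas6 (2022 coding bases) and Pros1 (2025) were identical at 64.7%. The longest stretch of identical bases was 14 in each receptor pair and 12 in the ligand pair. The stretches below, in capitals with 15 bases of the GENCODE M21 coding sequence on either side, show how short these shared parts are.
Mertk: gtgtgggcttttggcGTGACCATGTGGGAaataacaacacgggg
Tyro3: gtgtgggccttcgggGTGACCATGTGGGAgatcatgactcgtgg
Mertk: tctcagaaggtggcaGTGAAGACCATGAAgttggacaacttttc
Axl: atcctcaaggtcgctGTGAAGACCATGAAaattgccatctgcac
Gas6: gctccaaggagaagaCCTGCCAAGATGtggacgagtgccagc
Pros1: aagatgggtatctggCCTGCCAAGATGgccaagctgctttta
No member had a transcript of another gene matching it at 95% identity or more over at least 150 bases, and no exon base of a member was shared with another gene. Counts of the 5 genes are therefore not split with a close copy or an overlapping gene.

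In GRCm38, Mertk lies on the plus strand of chromosome 2 (128698956 to 128802894; 19 exons in its longest transcript) and Tyro3 on the same strand of the same chromosome (119797733 to 119818104; 20 exons), with 8.88 Mb between them. Axl lies on the minus strand of chromosome 7 (25757273 to 25788705; 20 exons), Gas6 on the minus strand of chromosome 8 (13465374 to 13494535; 15 exons) and Pros1 on the plus strand of chromosome 16 (62854307 to 62929346; 15 exons). Because Mertk, the targeted gene, and Tyro3 were both lower in Mertk KO, the 250 bases before the start of each in RefSeq are shown, chr2:128698665-128698914 for Mertk and chr2:119799264-119799513 for Tyro3 (GRCm38.p6, plus strand). These are reference letters, and the libraries, of mixed background, may carry others. Whether the windows bear on the lower levels was not tested. Capitals mark the letters of a GC box, GGGCGG on either strand, which is the motif known for binding Sp-family factors.
Mertk: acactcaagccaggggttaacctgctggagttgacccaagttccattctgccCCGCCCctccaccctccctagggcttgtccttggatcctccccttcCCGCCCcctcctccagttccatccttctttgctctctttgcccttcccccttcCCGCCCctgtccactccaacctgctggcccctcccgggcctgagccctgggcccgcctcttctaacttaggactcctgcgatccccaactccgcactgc
Tyro3: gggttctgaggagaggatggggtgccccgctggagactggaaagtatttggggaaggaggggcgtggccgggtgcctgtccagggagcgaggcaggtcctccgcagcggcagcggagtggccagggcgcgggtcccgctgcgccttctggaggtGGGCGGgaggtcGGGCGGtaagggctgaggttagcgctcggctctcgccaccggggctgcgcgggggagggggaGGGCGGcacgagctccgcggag
Both windows held 3 GC boxes, and Axl, Gas6 and Pros1 held 1, 4 and 5 in theirs. At least 1 occurred in 32.7% of the 32851 RefSeq windows of this length. The Tyro3 window had 24 CpG sites and 73.2% G and C, against 7 and 63.6% for Mertk and medians of 6 and 52.4% over all windows. The letters TATAAA (in 12.4% of all windows), CCAAT (33.8%) and CANNTG (66.2%), searched on both strands, were not in the Mertk or Tyro3 window, so no motif overlapped a GC box there. The Tyro3 window lies inside the gene's annotated span, since a longer annotated transcript starts upstream of it.

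The first question was how much of each TAM transcript the RPE holds. Levels of different genes were compared as TPM, which divides each count by the gene's exon length before scaling the library to a fixed total. Gas6 was the most abundant of the 5, at 242 ± 16 TPM in Mertk WT (SD, n = 4), followed by Mertk at 169 ± 9.8 TPM and Tyro3 at 99.1 ± 11.4 TPM. Axl, the TAM receptor known from dendritic cells, vessels and inflamed tissue, was at 2.58 ± 0.355 TPM, and Pros1 at 0.492 ± 0.268 TPM. These RPE libraries thus held Gas6 with Mertk and Tyro3 transcripts, and little of Axl or Pros1. Which cells of the bulk preparations the transcripts came from was not tested.

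Ranked by mean TPM over the 15 libraries among the 25132 genes with a count, Gas6 stood at 601, Mertk at 960, Tyro3 at 1835, Axl at 11362 and Pros1 at 14875. The order Gas6, Mertk, Tyro3, Axl, Pros1 was the same in 15 of 15 libraries. Neighbours in this order did not overlap within a group, with 1 exception. In Bai1 Tg pos the highest Pros1 library (2.66 TPM) lay above the lowest Axl library (2.28 TPM). In the same group Gas6 was at 202 TPM or more and Mertk at 177 TPM or less, and Mertk was at 149 TPM or more and Tyro3 at 129 TPM or less.

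**Figure D1:**
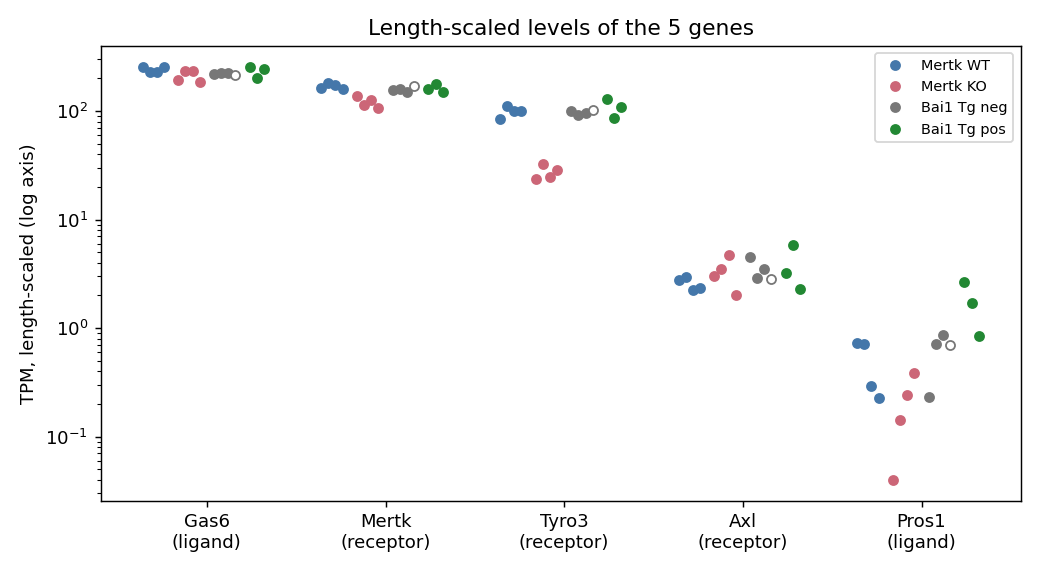
Level of each gene in TPM on a log axis (y axis), with genes ordered by level and their role in brackets (x axis); each point is 1 library, coloured by group, and the open grey point is the library labelled Bai1 Tg neg 4. Gas6, Mertk and Tyro3 lie between 23.4 and 256 TPM, while Axl and Pros1 lie at 5.81 TPM or less.

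The order rests on the length used. With the length of the longest annotated transcript, the same order held in 14 of 15 libraries, the exception being Bai1 Tg pos 1, with Tyro3 at 160 and Mertk at 144 TPM. In CPM, which is not scaled by length, it held in 3 of 15, since Gas6 has the shortest gene model (2593 exon bases, against 4336 for Mertk and 6198 for Tyro3).

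Ligand and receptor levels were set against each other as ratios of TPM, given as descriptions without a test. In Mertk WT the sum of both ligands per sum of all 3 receptors was 1.03, 0.776, 0.822 and 0.976 in replicates 1 to 4 (0.900 ± 0.120). In Mertk KO it was 1.19, 1.56, 1.5 and 1.34 (1.40 ± 0.169). All 4 Mertk KO libraries were above all 4 Mertk WT libraries. Gas6 made up nearly the whole ligand sum. The sum of the receptors was 271 ± 20.1 TPM in Mertk WT and 151 ± 11 TPM in Mertk KO, again without overlap. Most of the Mertk KO sum was transcript of the targeted gene, with Mertk at 121 ± 13.7, Tyro3 at 27.3 ± 4.27 and Axl at 3.32 ± 1.14 TPM. The Mertk KO sum and ratio thus count Mertk transcript as receptor, and whether it yields receptor was not tested. The Bai1 groups had ratios of 0.852 ± 0.0536 (Bai1 Tg neg, n = 4) and 0.861 ± 0.0949 (Bai1 Tg pos, n = 3), with receptor sums of 259 ± 11.8 and 274 ± 17.3 TPM. Without Bai1 Tg neg 4, the Bai1 Tg neg ratio was 0.876 ± 0.0288 and its receptor sum 254 ± 5.27 TPM (n = 3). The size of the ratio depends on the scale: from CPM, without length scaling, it was 0.465 ± 0.0639 in Mertk WT and 0.772 ± 0.0874 in Mertk KO, still without overlap.

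The makeup of the receptor pool also differed. Tyro3 was 36.5 ± 1.94% of the 3 receptor transcripts in Mertk WT and 18.2 ± 3.78% in Mertk KO, where every library (14.3 to 22.0%) was below every Mertk WT library (33.8 to 38.0%). Mertk itself was 62.6 ± 1.87% in Mertk WT and 79.6 ± 3.64% in Mertk KO, so the group labelled knockout had the larger share of Mertk transcript among the 3. The share of Axl was 0.953 ± 0.132% in Mertk WT and 2.18 ± 0.688% in Mertk KO. A share also grows when the sum shrinks, and the receptor sum was 271 TPM in Mertk WT and 151 TPM in Mertk KO. Axl itself overlapped in TPM, at 2.22 to 2.99 in Mertk WT and 2.00 to 4.75 in Mertk KO. Tyro3 shares in the Bai1 groups were 37.7 ± 1.25% (Bai1 Tg neg; 37.9 ± 1.40% without Bai1 Tg neg 4) and 39.1 ± 6.48% (Bai1 Tg pos).

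Per receptor, Gas6 stood at 1.43 ± 0.174 TPM per TPM of Mertk in Mertk WT and 1.76 ± 0.271 in Mertk KO, and these groups overlapped. Per TPM of Tyro3, Gas6 was at 2.47 ± 0.424 in Mertk WT and 7.83 ± 1.38 in Mertk KO, with a highest Mertk WT library of 3.02 and a lowest Mertk KO library of 6.40. The Bai1 groups lay near Mertk WT in both ratios, at 1.39 ± 0.103 and 1.45 ± 0.273 per Mertk and 2.26 ± 0.141 and 2.20 ± 0.211 per Tyro3 in Bai1 Tg neg and Bai1 Tg pos. Without Bai1 Tg neg 4 that group had 1.44 ± 0.0521 per Mertk and 2.31 ± 0.121 per Tyro3. From CPM, Gas6 per Mertk was 0.858 ± 0.104 in Mertk WT and 1.05 ± 0.162 in Mertk KO, and per Tyro3 1.03 ± 0.178 and 3.28 ± 0.577.

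**Figure D2:**
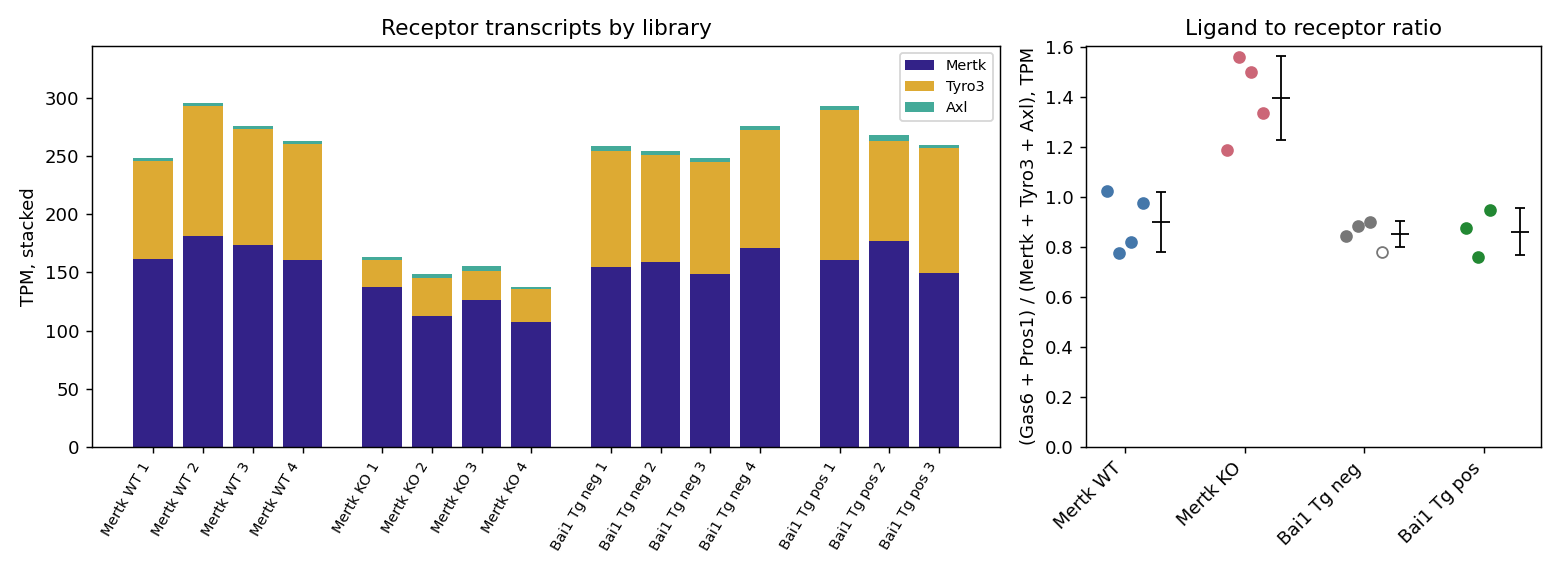
Left, TPM of Mertk, Tyro3 and Axl stacked (y axis) in each library (x axis). Right, TPM of both ligands per TPM of the 3 receptors (y axis) by group (x axis), each point a library, bars the mean and SD, and the open point the library labelled Bai1 Tg neg 4. The Mertk KO columns end at 138 to 164 TPM and the others at 248 to 296 TPM, while the Mertk KO ratios lie at 1.19 to 1.56 and the others at 0.760 to 1.03.

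In Mertk KO against Mertk WT, Mertk and Tyro3 fell, Axl and Gas6 did not pass the test, and Pros1 was too low for it. Tyro3, which is not the targeted gene, had the larger fold change of the 2, and no TAM gene tested passed as higher. Of 13447 genes tested with edgeR's quasi-likelihood test at an adjusted p of 0.05, 0.223% passed, and 0.164% passed as lower, against 2 of the 4 members tested. Of these 2, Mertk is the gene that defines the groups, and the members were chosen with earlier results of these data known. DESeq2 called the same 2 members and 0.551% of all genes. Fewer cells of a type and less RNA per cell cannot be told apart in these bulk samples.

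Mertk, the targeted receptor, was at 238, 262, 252 and 233 CPM in Mertk WT replicates 1 to 4. In Mertk KO it was at 196, 170, 191 and 155 CPM. The highest Mertk KO library was below the lowest Mertk WT library, and each still held 2527 or more Mertk fragments. The log2 fold change was -0.48 (SE 0.086, edgeR adjusted p = 0.0461), leaving 71.9% of the Mertk WT level. The sources used here do not name the exons that the allele lacks, and counts cover all exons of a gene, so the level checks the genotype only in part. The Mertk call was near the threshold and was lost in 10 of 16 alternative fits, among them each of the 8 that left out 1 library (adjusted p = 0.0546 to 0.228), although the log2 fold change stayed between -0.52 and -0.41.

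Tyro3, the TAM receptor best known from neurons, was at 177, 232, 208 and 208 CPM in Mertk WT and at 47.8, 70.6, 52.7 and 59.4 CPM in Mertk KO. The groups were far apart, with no Mertk KO library above 70.6 CPM and no Mertk WT library below 177 CPM. The log2 fold change was -1.84 (SE 0.121, edgeR adjusted p = 2.65e-05), leaving 27.9% of the Mertk WT level, and its p was the smallest of the 13447 genes tested. Tyro3 passed in all 16 alternative fits, with log2 fold changes from -1.95 to -1.76. Within the libraries of tag 17 (3 against 3) it was -1.85 (adjusted p = 0.00336), and Mertk there was -0.44 (adjusted p = 0.283). Tag 21 holds 1 library per group, with Tyro3 at 59.4 (Mertk KO) and 208 CPM (Mertk WT) and no test. Libraries did not overlap for Mertk and Tyro3, both lower in Mertk KO, as was the case for 1.78% of the genes tested.

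Axl, the remaining receptor, was at 4.71, 5.01, 3.74 and 3.95 CPM in Mertk WT and at 5.05, 6.11, 8.31 and 3.36 CPM in Mertk KO. The groups overlapped, since Mertk KO held both the highest and the lowest library. The log2 fold change was 0.38 (95% interval -0.14 to 0.90, from the SE; edgeR adjusted p = 0.905). With 38 to 120 Axl fragments per library in these groups, the interval holds both no change and a rise of 0.90 on the log2 scale.

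Gas6, the abundant ligand, was at 224, 198, 197 and 223 CPM in Mertk WT and at 166, 210, 210 and 159 CPM in Mertk KO. A pair of Mertk KO libraries was below all of Mertk WT and the other pair was within its range. The log2 fold change was -0.18 (95% interval -0.39 to 0.02; edgeR adjusted p = 0.905).

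Pros1, the scarcer ligand, had 15, 18, 6 and 3 fragments in Mertk WT and 1, 3, 5 and 9 in Mertk KO, or 0.676 ± 0.371 and 0.283 ± 0.204 CPM. The groups overlapped, and several libraries were at or under the floor of 3 fragments. Pros1 was too low for the edgeR filter in this comparison, and a two-sided exact permutation test of its CPM gave p = 0.171, where the smallest possible is 0.0286. Where edgeR did fit Pros1, its log2 fold change was -1.26 without the filter (adjusted p = 0.791) and -1.27 with all 15 libraries in 1 fit (adjusted p = 0.848).

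**Figure D3:**
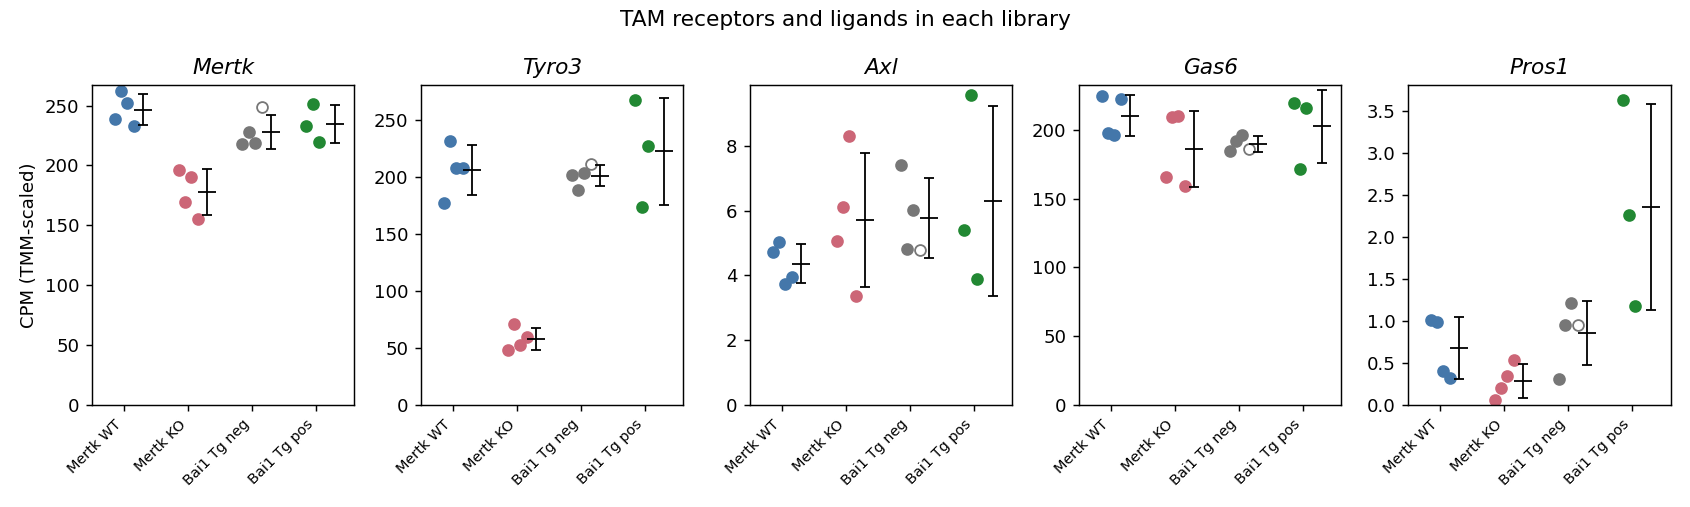
Level of each gene in CPM (y axis, starting at 0) by group (x axis), each point 1 library, bars the mean and SD, and the open point the library labelled Bai1 Tg neg 4. Mertk and Tyro3 separate Mertk KO (155 to 196 and 47.8 to 70.6 CPM) from the other groups, and Axl, Gas6 and Pros1 of Mertk KO overlap with Mertk WT.

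Markers of other cells were followed beside these values. The summed CPM of 12 rod photoreceptor genes was 967 to 1614 in Mertk KO and 889 to 3679 in Mertk WT. With the rod level as a covariate Mertk was at -0.44 (adjusted p = 0.0355) and Tyro3 at -1.80 (adjusted p = 8.52e-05). The sum of 8 endothelial genes was lower without overlap, at 7.84 to 11.7 CPM in Mertk KO and 13 to 20.8 CPM in Mertk WT. Most of it was Kdr, at 4.60 to 7.679 CPM in Mertk KO and 7.676 to 11.9 CPM in Mertk WT, which just overlapped. The defining Pecam1 was at 0 to 1.46 CPM over both groups. None of the 8 was at 0 in a whole group, and 3 were high enough to be tested, all below 0 and none past the threshold. The part of endothelial RNA in the Mertk and Tyro3 results was not tested. The sum of 12 macrophage and microglia genes, cells that use Mertk and Axl, was 666 to 744 CPM in Mertk KO and 638 to 705 CPM in Mertk WT. Nearly all of it was Csf1r (659 to 736 and 629 to 698 CPM). Of the 12, 2 were at 0 in the whole Mertk KO group and 0 in the whole Mertk WT group, and 2 were high enough to be tested. This sum therefore follows Csf1r and says little about the other markers of these cells. The sum of 10 RPE genes was 42400 to 46017 CPM in Mertk KO and 43704 to 48958 CPM in Mertk WT.

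Mertk and Tyro3 share a chromosome, and the genes beside each were read in the same comparison. Next to Mertk, Anapc1, an anaphase-promoting complex subunit 11.6 kb before it, had a log2 fold change of -0.03 (edgeR adjusted p = 0.958), and Tmem87b, a transmembrane protein gene 15.2 kb after it, had 0.05 (0.943). Fbln7, the matrix protein fibulin 7 at 60.1 kb, rose by 1.00 (adjusted p = 0.000966), from 30.1 ± 2.64 CPM in Mertk WT to 60.3 ± 6.58 CPM in Mertk KO. The other 3 of the 6 nearest tested genes, Mtln, Bcl2l11 and Zc3h8, had values from -0.15 to 0.18 and did not pass.

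None of the 6 genes around Tyro3 passed. Rpap1, an RNA polymerase II-associated protein 10.2 kb before it, had a log2 fold change of 0.13 (edgeR adjusted p = 0.91), and Mga, a transcription factor 79.1 kb after it, had 0.00 (0.998). Rtf1 had 0.26, Ltk, another receptor tyrosine kinase, 0.50, Mapkbp1 0.21 and Sptbn5 0.36 (adjusted p = 0.745 to 0.941). DESeq2 called none of the 6 either, and Rtf1 alone of them had an unadjusted p under 0.05, as 5.58% of all genes tested did. The sources used here do not give the strain origin of this stretch of chromosome 2, so the Mertk genotype and alleles linked to it cannot be told apart.

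In Bai1 Tg pos against Bai1 Tg neg no TAM gene passed the edgeR test. All 5 overlapped between the groups, and Pros1 had the largest fold change of them while resting on few fragments. At an adjusted p of 0.05, 0.0144% of 13855 genes passed. At an unadjusted p under 0.05 there was 1 member, Pros1, beside 5.18% of the genes tested, and DESeq2 called none of the 5 (0.152% of all genes). Groups without overlap were found for 6.2% of the genes tested.

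Mertk was at 233, 252 and 220 CPM in Bai1 Tg pos and at 218, 228, 219 and 248 CPM in Bai1 Tg neg 1 to 4, so the ranges lay almost on top of each other. The log2 fold change was 0.04 (95% interval -0.10 to 0.19; edgeR adjusted p = 0.979). Tyro3 was at 267, 173 and 227 CPM in Bai1 Tg pos, where both the highest and the lowest library of the comparison were found, and at 201, 189, 203 and 211 CPM in Bai1 Tg neg. Its log2 fold change was 0.15 (95% interval -0.09 to 0.38; adjusted p = 0.958).

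Axl was at 5.40, 9.57 and 3.9 CPM in Bai1 Tg pos and at 7.39, 4.83, 6.03 and 4.79 CPM in Bai1 Tg neg. Bai1 Tg pos 2 was the highest of the 15 libraries, and without it the log2 fold change went from 0.14 (95% interval -0.46 to 0.74; edgeR adjusted p = 0.986) to -0.31. Gas6 was at 220, 172 and 216 CPM in Bai1 Tg pos and at 184, 192, 196 and 186 CPM in Bai1 Tg neg, a log2 fold change of 0.10 (95% interval -0.07 to 0.26; adjusted p = 0.958). For Gas6, Bai1 Tg pos was the more spread group, with an SD of 26.6 CPM against 5.52 CPM in Bai1 Tg neg.

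Pros1 had 37, 38 and 22 fragments in Bai1 Tg pos and 4, 16, 17 and 19 in Bai1 Tg neg, or 3.63, 2.26 and 1.18 CPM against 0.308, 0.953, 1.21 and 0.949 CPM. The lowest Bai1 Tg pos library was just under the highest Bai1 Tg neg library. The log2 fold change was 1.43 (SE 0.577; unadjusted p = 0.0257, edgeR adjusted p = 0.948). The exact permutation p was 0.114, where the smallest possible is 0.0571, and without Bai1 Tg neg 4 the exact permutation p was 0.2 (smallest possible 0.1). Leaving out single libraries gave values from 0.99 to 1.76, with edgeR adjusted p from 0.32 to 1.00.

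When the library labelled Bai1 Tg neg 4 was left out, 0.0369% of 13562 genes passed, and none of the members did (Pros1 again had an unadjusted p under 0.05, as did 4.35% of all genes). All 5 still overlapped, and 10.3% of the genes tested did not. Their log2 fold changes were then 0.09 for Mertk, 0.17 for Tyro3, 0.06 for Axl, 0.09 for Gas6 and 1.49 for Pros1. The summed rod level was 263 to 789 CPM in Bai1 Tg pos and 204 to 468 CPM in Bai1 Tg neg, and with it as a covariate Pros1 had a log2 fold change of 1.00 and Axl -0.20, neither past the threshold. The sum of 9 fibroblast and mural genes was higher without overlap, at 243 to 322 CPM in Bai1 Tg pos and 190 to 236 CPM in Bai1 Tg neg (190 to 230 without Bai1 Tg neg 4). Most of it was Acta2, smooth muscle actin (208 to 284 and 162 to 198 CPM), while Col1a1, a chain of fibrillar collagen, was at 0.267 to 5.95 and 0.308 to 1.01 CPM. None of the 9 was at 0 in a whole group. With Bai1 Tg neg 4 kept, 5 of the 9 were high enough to be tested, 3 above 0 and 2 below, none past the threshold. The sum therefore mostly follows Acta2, and the part of these cells in the Pros1 value was not tested.

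**Figure D4:**
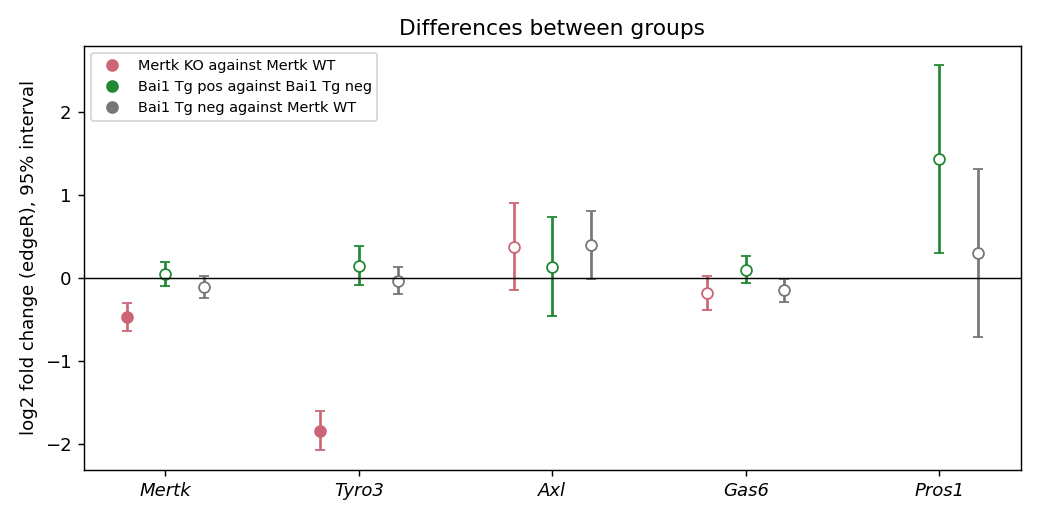
Log2 fold change from edgeR (y axis) of each gene (x axis) in 3 comparisons, with bars for the 95% interval taken from the SE; filled points passed an adjusted p of 0.05. The filled points are Mertk (-0.48) and Tyro3 (-1.84) in Mertk KO, and Pros1 was not tested there.

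Both control groups carry wild-type Mertk and no transgene by label, and they show how far TAM levels differ between the sets of libraries. In Bai1 Tg neg against Mertk WT no member passed, while 0.431% of 13459 genes did. DESeq2 called none of the members and 1.64% of all genes, and gave Gas6 alone an unadjusted p under 0.05, as it did 8.1% of all genes. The log2 fold changes were -0.11 for Mertk, -0.03 for Tyro3, 0.39 for Axl, -0.15 for Gas6 and 0.30 for Pros1 (edgeR adjusted p = 0.626 to 0.969). Gas6 had the smallest unadjusted p of them (0.0509), and its Bai1 Tg neg libraries (184 to 196 CPM) were all below its Mertk WT libraries (197 to 224 CPM), as 2.96% of the genes tested were. Without Bai1 Tg neg 4, 0.204% of 13710 genes passed and again no member, with log2 fold changes of -0.15 for Mertk, -0.06 for Tyro3, 0.48 for Axl, -0.14 for Gas6 and 0.25 for Pros1 (edgeR adjusted p = 0.71 to 0.981). Mertk and Gas6 were then lower without overlap, as were 4.57% of the genes tested. Library set, tag number and group cannot be told apart here. The summed rod level also differed without overlap, at 204 to 468 CPM in Bai1 Tg neg and 889 to 3679 CPM in Mertk WT, and its part in the Gas6 value was not tested.

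The Mertk and Bai1 effects were compared directly over all 15 libraries, as the Mertk KO difference minus the Bai1 difference. For Tyro3 the difference of the effects was -1.99 on the log2 scale (SE 0.187, edgeR adjusted p = 9.56e-05), the smallest p of 14520 genes, of which 0.103% passed. For Mertk it was -0.52 (SE 0.112, adjusted p = 0.0876), and this passed with DESeq2 (-0.53, adjusted p = 0.00713), which called 0.559% of all genes, and without the low-count filter (-0.51, adjusted p = 0.0468; 0.147% of all genes). Pros1 had -2.71 (SE 0.914, unadjusted p = 0.0077, adjusted p = 0.429), Gas6 -0.28 (adjusted p = 0.683) and Axl 0.24 (adjusted p = 0.928). Without Bai1 Tg neg 4, Tyro3 had -2.02 (adjusted p = 0.000471), Mertk -0.56 (adjusted p = 0.0846), Pros1 -2.77 (adjusted p = 0.519), Gas6 -0.27 (adjusted p = 0.741) and Axl 0.32 (adjusted p = 0.897), and 0.118% of 14427 genes passed. Of the 5, Tyro3 was thus the one whose effects differed past the threshold.

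Genes around the TAM pathway were read from 6 lists of 68 genes: signalling proteins downstream of the receptors, interferon and SOCS feedback, vitamin K carboxylation and ligand processing, receptor shedding, other proposed Mertk ligands, and transcription factors tied to Mertk or Axl. In Mertk KO against Mertk WT, 60 of the 68 were tested and none rose or fell at the adjusted threshold (0.223% of all genes passed). DESeq2 called none either, and 2 (Src and Rhbdf1) had an unadjusted p under 0.05, beside the 5.58% of all genes given above. Lists had median log2 fold changes between -0.23 and 0.10, beside 0.00 over all genes tested.

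Among the 22 of 25 downstream proteins tested (median 0.02), Src, the kinase that relays receptor signals to the cytoskeleton, stood at 207 ± 4.95 CPM in Mertk WT and, in Mertk KO, at 177 ± 15.6 CPM (log2 fold change -0.23, edgeR adjusted p = 0.624). Dock1, an exchange factor that activates Rac during engulfment, was at 93.4 ± 6.39 and 81.2 ± 10.7 CPM (-0.21, adjusted p = 0.893). Of the 8 of 11 interferon and SOCS genes tested (median 0.10), Stat3, a cytokine-activated transcription factor, had 0.19 (adjusted p = 0.893) and Socs3, an inhibitor of cytokine receptors, -0.67 (adjusted p = 0.905), with Socs3 spread from 11.8 to 60.9 CPM over these 8 libraries.

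Of the 10 of 11 vitamin K and processing genes tested (median -0.09), Nqo1, a quinone reductase, had a log2 fold change of -0.20 and Pcsk7, a proprotein convertase, -0.16 (edgeR adjusted p = 0.90 and 0.91). Ggcx, the carboxylase that modifies Gas6 and Pros1, stood at 24.3 ± 3.72 CPM in Mertk WT and at 25.1 ± 2.22 CPM in Mertk KO. Of the 7 of 8 shedding genes tested (median 0.06), Rhbdf1 and Rhbdf2, the iRhoms that carry the sheddase Adam17 to the surface, had 0.25 and 0.25 (edgeR adjusted p = 0.89 and 0.91). Adam17, which cleaves Mertk from the cell surface, was at 47.2 ± 3.08 and 51.4 ± 5.19 CPM, and Timp3, an inhibitor of such proteases, at 4021 ± 139 and 4161 ± 190 CPM. Ggcx, Adam17 and Timp3 were named after their values were seen.

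The 3 other proposed ligands were all tested (median -0.23). Tub stood at 12.4 ± 8.24 CPM in Mertk WT and at 9.08 ± 2.17 CPM in Mertk KO, and Lgals3, galectin 3, at 5.59 ± 0.913 and 6.41 ± 1.58 CPM. Tulp1, the third, is a photoreceptor gene, and was at 17.3 to 55.5 CPM in the Mertk groups and 2.25 to 8.87 CPM in the Bai1 groups, where the summed rod level was lower too (204 to 789 against 889 to 3679 CPM). All 10 transcription factors were tested (median -0.04), with Sp3, a GC-box binding factor, at -0.24 (edgeR adjusted p = 0.893) and Nr1h2, the oxysterol receptor LXR beta, at 0.31 (adjusted p = 0.905).

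With Bai1, 64 of the 68 were tested, none passed with edgeR (0.0144% of all genes did) or DESeq2, and 2 had an unadjusted p under 0.05 (5.18% of all genes did). Without Bai1 Tg neg 4, 61 were tested, none passed and 3 had an unadjusted p under 0.05 (4.35% of all genes did). Src had a log2 fold change of 0.00 and Dock1 -0.08 in the comparison of all 7 Bai1 libraries (adjusted p = 0.998 and 0.967).

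**Figure D5:**
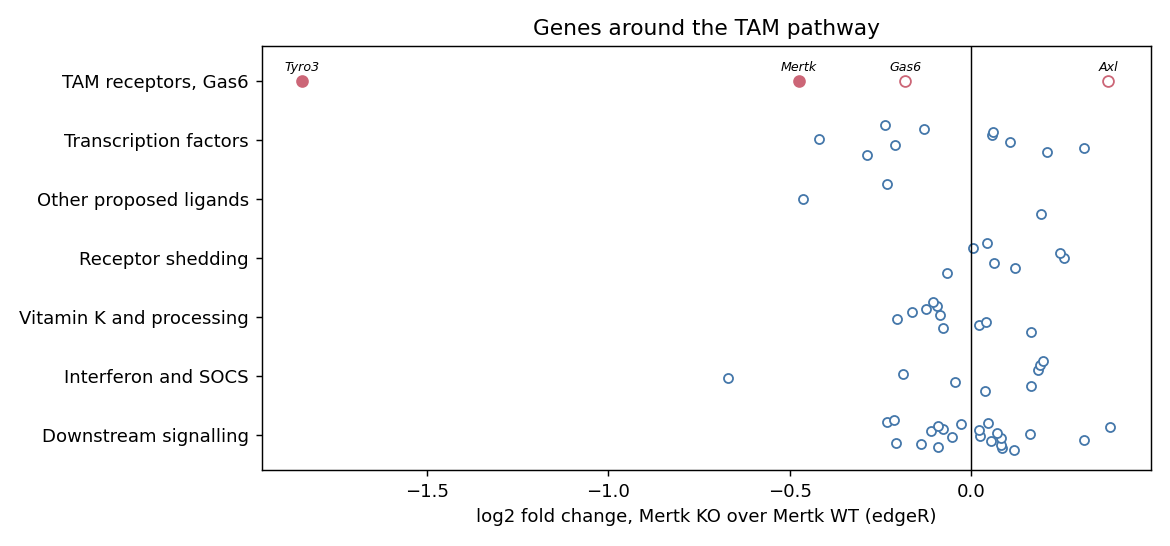
Each tested gene by its edgeR log2 fold change in Mertk KO relative to Mertk WT (x axis), in rows by list (y axis), with the TAM genes at the top; filled points passed an adjusted p of 0.05. Apart from Tyro3 (-1.84) and Mertk (-0.48), no gene is filled, and the listed genes lie between -0.67 and 0.38.

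Finally, the genes whose levels ran most closely with each abundant member were sought among 8772 genes with a mean of at least 10 CPM, by Pearson's r of log2 CPM over the 15 libraries. For Tyro3 they were Tmem127 (r = 0.962), a transmembrane protein gene also on chromosome 2, Gja1 (0.957), the gap junction protein connexin 43, and Rassf2 (0.934), a Ras-association protein on chromosome 2. For Mertk they were Sptssa (0.934), a subunit of serine palmitoyltransferase, Rassf2 (0.887) and Unc13b (0.883), a vesicle priming protein. The Mertk KO group enters all of these values. With group means removed, r with Tyro3 was 0.705 for Tmem127, 0.634 for Gja1 and 0.167 for Rassf2, and r with Mertk was 0.851 for Sptssa, 0.368 for Rassf2 and 0.404 for Unc13b. Other genes then came first for both, Suclg1 (0.908) for Tyro3 and Rdh10 (0.898) for Mertk.

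For Gas6 the nearest genes were Slc9a3r1 (r = 0.874), a membrane scaffold, Krt8 (0.815), an epithelial keratin, and H2-D1 (0.797), a class I histocompatibility gene. With group means removed, their r was 0.855, 0.807 and 0.816, and other genes then came first (Hes1, a Notch target, at 0.896). All of these r values share libraries and scaling factors and are descriptions without a test.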

How the data were processed

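RNA sequencing of the RPE was analysed from 1 deposited table of raw fragment counts for 46078 genes in 15 libraries. Per the labels' protocols, libraries were made from poly-A RNA with the TruSeq kit. STAR and the GRCm38 build are named in the submitters' processing notes. The authors counted read pairs with featureCounts 1.5.0 over exons, without strand, per the file headers. They deposited each gene's exon length (other values) beside its counts. For STAR's version and the annotation release, the sources used here give nothing.

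Symbols were matched by identifier for 45143 genes (99.91% of counts). Genes were filtered with filterByExpr, scaled with TMM and tested two-sided by the quasi-likelihood method of edgeR 4.0.16 (R 4.3.3) with robust dispersions. Adjusted p-values follow Benjamini and Hochberg, over every gene tested in edgeR and every gene that DESeq2 gave an adjusted p. Exact permutation p-values and those called unadjusted were not adjusted. Only the groups compared entered a fit, except for the difference of the effects (all 15). Each SE is the absolute log2 fold change over the root of F. Each 95% interval is 1.96 SE on either side, a normal multiplier that makes it too narrow for so few libraries. Code was tested on simulated data. TPM was computed from counts and exon lengths. DESeq2 1.42.0, other size factors, no filter, a replicate block, a rod covariate, tag 17 alone and leaving out libraries were the alternatives. Replicates all differed beyond sampling noise (lowest chi-square per degree of freedom 5.28). Copies were searched for with blastn 2.17.0. Floors cover counting error only, since fragments carry no molecular identifiers.

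The members and lists were chosen with earlier results of these data known. Genes named were the members, 2 genes of smallest p per list, the first and most abundant marker of a list where used, the 3 nearest tested genes on each side of Mertk and Tyro3, and the 3 most alike genes per member above 10 CPM. Promoters are from RefSeq (GRCm38.p6), which matched all 5 members.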

Additional observations from a re-analysis of the deposited data

Results flagged for a closer look

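The effects of the Mertk genotype and of Bai1 on Tyro3 differed by -1.99 on the log2 scale in the edgeR test of the difference itself (SE 0.187, adjusted p = 9.56e-05). Of 14520 genes, 0.103% passed this test. All 4 Mertk KO libraries were below all 4 Mertk WT libraries, as for 1.78% of the genes tested. The Bai1 groups overlapped, and 6.2% of the genes tested there did not. Tyro3 was among the members chosen with earlier results of these data known.

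The ratio of Gas6 to Pros1 in TPM was 943 in Bai1 Tg neg 1, far from the 257 to 317 of the other 3 Bai1 Tg neg libraries. Pros1 had 4 fragments in that library, and Gas6 was at 184 CPM, near the 186 to 196 CPM of the others. Over the 42 groups of values examined in this way, chance alone flags about 1 in 20.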

How the results depend on the processing

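Tyro3 stayed called and lower in Mertk KO in all 16 alternatives and in the difference of the effects in all 19. The Mertk call was lost when any library was left out (log2 fold change -0.520 to -0.414), with the replicate block (-0.48, adjusted p = 0.099) and with tag 17 alone (-0.44). In the difference of the effects Mertk passed with DESeq2 (-0.525) and without the filter (-0.512). Axl and Gas6 never passed in any comparison. The cause of these changes was not tested.

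Directions turned for uncalled members. In the Bai1 comparison, leaving out a library gave -0.0064 to 0.0905 for Mertk (negative without Bai1 Tg pos 2), -0.00723 to 0.302 for Tyro3 (negative without Bai1 Tg pos 1) and -0.310 to 0.401 for Axl (negative without Bai1 Tg pos 2). Axl was also at -0.0189 with the replicate block and -0.205 with the rod covariate. Tyro3 in Bai1 Tg neg against Mertk WT ranged from -0.100 to 0.0258 (above 0 without Mertk WT 2), and Axl in the difference of the effects from -0.0206 (without Bai1 Tg pos 3) to 0.692.

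Counts of genes called moved more. For Mertk KO the 30 became 74 (DESeq2), 69 (no filter), 14 (tag 17 alone) and 16 to 31 with a library left out (16 without Mertk KO 4). For Bai1 the 2 became 21 (DESeq2), 85 (no filter), 0 (all 15 libraries in 1 edgeR fit, with 814 at an unadjusted p under 0.05), 4 (replicate block), 1 (rod covariate) and 0 to 54 with a library left out: 0 without Bai1 Tg neg 3, 1 without Bai1 Tg neg 1, 5 without Bai1 Tg neg 4, Bai1 Tg pos 1 or Bai1 Tg pos 2, and 54 without Bai1 Tg pos 3. For the control groups the 58 became 221 (DESeq2), 138 (no filter) and 13 to 89 (13, 15 and 28 without Bai1 Tg neg 1, 2 and 4, and 88 and 89 without Mertk WT 1 and 4). For the difference of the effects the 15 became 81 (DESeq2), 37 (no filter) and 12 to 31 (31 without Bai1 Tg pos 3 and 26 without Mertk WT 1).

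The fits treat libraries as unpaired, and correlations of so few libraries cannot settle whether replicate numbers pair them. Same-numbered libraries correlated at -0.091 to 0.232 (Mertk groups) and -0.050 to 0.012 (Bai1 groups), and 2 of 4 and 0 of 3 correlated best with their own number. The block gave 24 calls in Mertk KO and changed no other member's call.

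Without length scaling the order of levels held in 3 of 15 libraries and 28 of 36 ratio means moved by over 1 SD, as did 17 with the longest transcript and none with a library left out. Depth limits Pros1 (1 to 38 fragments per library).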
